A study of Homo sapiens with 4 samples.

Results

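MDA-MB-231 cells carrying an inducible miR-100 plasmid were compared after 1 week with the inducing drug and after 1 week without it. MDA-MB-231 is an established human triple-negative breast cancer line of mesenchymal character, grown here in DMEM with 5% serum. Both states carry the same lentiviral plasmid, named Ptripz-mir100 in the series' design text, and both went through selection with puromycin at 5 µg/ml. The drug is doxy in the sample names and tetracycline in the treatment text, and the control cells received none, so an effect of the drug and an effect of miR-100 cannot be told apart. The labels do not say whether the transduced cells were a pool or a clone, nor whether the states came from separately kept cultures. The comparison holds 2 of the series' 4 arrays, 1 for induced and 1 for control MDA-MB-231 cells. The other pair comes from SUM159, another triple-negative line, with the same plasmid and states. That text gives SUM149 as the other line, and the sample labels, which give SUM159, are followed.

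Each array was hybridised with biotinylated cDNA made from 100 ng of total RNA, and each value is a log2 signal for a probeset, a group of probes on the array. A gene was taken as its brightest probeset among those with exactly 1 gene symbol, which gave 22465 named genes. Of these, 14418 had a mean signal over the 4 arrays at or above 4.035, the median of all probesets, and were kept. A difference is induced minus control on the log2 scale throughout. With 1 array per state there was no replicate check and no test, so differences are described by size and the number of arrays limits their precision. Among 35250 probesets below the cutoff, where little signal is present, MDA-MB-231 differences had a spread of 0.178 (an SD estimated from the median absolute deviation). That spread was 0.193 in SUM159.

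Markers of the line were read first. The mesenchymal genes stood well above the cutoff in induced and control cells, with vimentin (VIM) at 15.29 and 15.20, the receptor kinase AXL at 15.65 and 15.84, and the cytoskeletal linker MSN at 16.41 and 16.63. Estrogen receptor ESR1 stood at 3.58 and 3.62, E-cadherin CDH1 at 3.97 and 4.03, and FOXA1, a luminal transcription factor, at 3.34 and 3.48. All 12 of the genes listed as high in such lines were kept, and 6 of the 12 listed as low were not. The epithelial genes CLDN7, at 7.78 induced and 7.62 control, and EPCAM, at 6.16 and 6.11, were above the cutoff. Of 24 markers of blood, endothelial and fibroblast cells, 9 were kept, and their median difference was -0.06.

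MicroRNAs are short RNAs that guide Argonaute proteins to messenger RNAs, mostly by pairing of the seed, the bases near their 5′ end, with sites in the untranslated end of the message. The usual outcome is faster decay or weaker translation of the message. miR-100 belongs to the miR-99/100 family, is made from a locus it shares with let-7a and miR-125b, and is known for lowering MTOR, the kinase that couples growth to nutrients, and other regulators of growth.

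The mature sequences of the family are shown because the shared seed, in capitals, is what its predicted targets have in common, and those of the neighbours let-7a and miR-125b because their seeds differ. They are from RefSeq, assembly GRCh38.p14, written 5′ to 3′. On that assembly mature miR-100 lies at chr11:122152275-122152296 on the minus strand.
hsa-miR-100-5p: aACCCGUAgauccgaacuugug
hsa-miR-99a-5p: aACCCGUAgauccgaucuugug
hsa-miR-99b-5p: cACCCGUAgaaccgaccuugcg
hsa-let-7a-5p: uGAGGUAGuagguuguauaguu
hsa-miR-125b-5p: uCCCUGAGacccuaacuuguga
The seed of miR-100 was held by 3 of 2370 mature human names in the table, the 3 family members above. Counting from 1 at the 5′ end of miR-100, miR-99a differs by A16U alone, and miR-99b differs by A1C, U11A, A16C and U21C, so all substitutions lie outside the seed. The MIR100 hairpin, on which the induced gene is named, has 80 bases at chr11:122152229-122152308 on the minus strand, with the mature arm in capitals.
MIR100 hairpin: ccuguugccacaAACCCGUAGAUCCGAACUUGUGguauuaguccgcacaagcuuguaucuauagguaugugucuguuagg

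MIR100 had the largest difference of all kept genes in MDA-MB-231. Its signal was 17.29 in induced cells and 8.11 in control cells, a difference of 9.18, which is the direction the labels give. In SUM159 the signals were 18.18 induced and 6.56 control, a difference of 11.62. The array does not separate the plasmid's MIR100 from the cells' own gene. The host transcript of the cells' own locus, MIR100HG, stood at 5.39 in induced cells and 5.20 in control cells. MIRLET7A2, the let-7a gene of that locus, stood at 5.65 and 5.55. MIR125B1 (3.13 induced, 3.22 control) was below the cutoff, as were MIR99A (3.33 and 2.94), MIR99B (3.35 and 3.39), MIRLET7C (2.92 and 2.70), MIR125B2 (2.77 and 2.99), MIRLET7E (3.18 and 3.45) and MIR125A (3.32 and 2.95). The host transcript of the chromosome 21 locus, MIR99AHG, stood at 5.44 and 5.33, and SPACA6, host of the chromosome 19 locus, at 4.48 and 4.68. MIR100 was thus the only gene of the 12 at these loci with a difference past 1.5-fold.

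Outside MIR100 the MDA-MB-231 arrays lay close together. Across all 70523 probesets their Pearson correlation was 0.9956, against 0.9934 for the SUM159 pair, and probesets are not independent replicates. Differences of 1.5-fold or more (0.585 on the log2 scale) were counted: 244 kept genes were higher in induced cells, 1.69% of those compared, and 113 were lower, 0.784%. Together these are 357 genes or 2.48%, which is close to the 2.34% of below-cutoff probesets that passed the same fold, 0.956% higher and 1.38% lower. In SUM159 570 genes (3.95%) were higher and 432 (3.0%) lower, 6.95% together, against 3.39% of below-cutoff probesets. The 5th percentile of MDA-MB-231 differences was -0.35, the median 0.01 and the 95th percentile 0.44. Above 0 were 50.6% of kept genes and below 0 47.3%. The counts of list members given further on are to be read beside these shares and the 1.69% and 0.784% past 1.5-fold. Within 0.05 of the fold counted lay 163 genes just short of it and 126 just past it, so membership of either count is sensitive to small shifts.

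**Figure D1:**
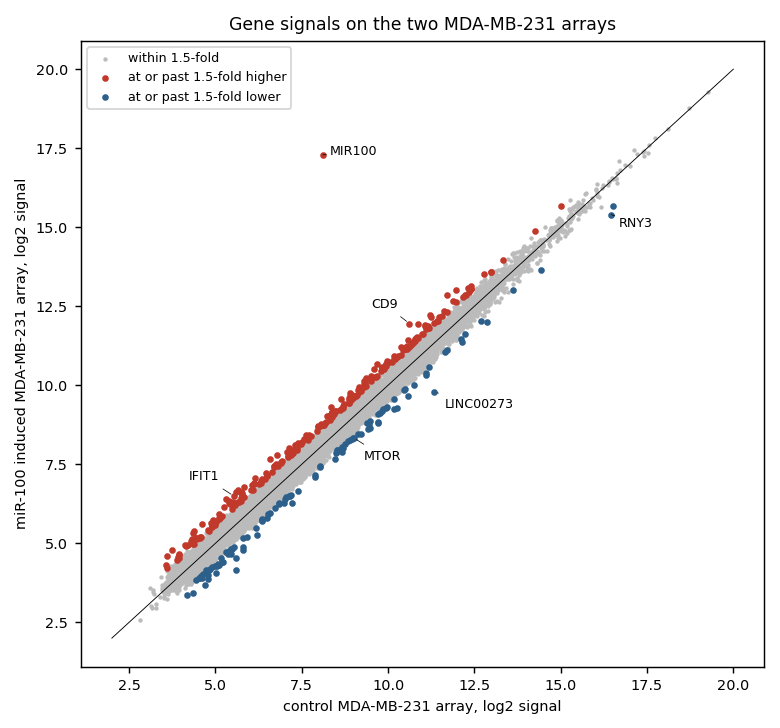
Log2 signal of 14418 kept genes on the induced MDA-MB-231 array (vertical) against the control array (horizontal), with genes at or past 1.5-fold in red (244 higher) and blue (113 lower), and the line of equal signal. MIR100, at 17.29 induced and 8.11 control, lies far from all others.

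Of the 244 genes higher in induced MDA-MB-231 cells, 181 are protein coding and 13 are microRNA genes, and 123 had a difference of the same sign in SUM159. Of the 113 lower, 58 are protein coding and 16 are microRNA genes, and 54 had the same sign. Of all kept genes 48.8% had a SUM159 difference above 0 and 49.4% below it, so the same-sign counts lie near these shares. The median SUM159 difference was 0.01 in either group, beside a SUM159 median of 0.0 over all kept genes.

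After MIR100, CD9 had the highest difference. This tetraspanin, a membrane organiser found on the cell surface and on extracellular vesicles, stood at 11.95 in induced cells and 10.62 in control cells, a difference of 1.33, with 0.51 in SUM159. OSTF1, an intracellular adaptor protein, followed with 12.84 induced and 11.72 control (1.12). SRP9, an RNA-binding subunit of the particle that directs new secretory proteins to the endoplasmic reticulum, stood at 11.94 and 10.88 (1.06). Other genes near 1 were EBAG9, a tumour-associated antigen (7.67 and 6.59, a difference of 1.08), the nucleosome assembly factor NAP1L3 (6.70 and 5.64, 1.06), and the close paralogs FAM72D (13.02 and 11.96, 1.06) and FAM72C (12.21 and 11.20, 1.01). The FAM72 genes are near-identical copies, so their probes may read each other and they are uncertain as separate genes.

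Signalling and metabolic genes were also among the 30 highest. IPMK, an inositol phosphate kinase, stood at 10.66 in induced cells and 9.67 in control cells (0.99). APIP, an enzyme of methionine salvage, stood at 9.31 and 8.35 (0.96), and G0S2, an inhibitor of the fat lipase ATGL, at 12.17 and 11.25 (0.92). MCUB, a subunit that dampens the mitochondrial calcium uniporter, stood at 9.74 and 8.90 (0.84), STX7, a fusion protein of late endosomes, at 10.23 and 9.36 (0.87), and CBFB, the partner subunit of RUNX transcription factors, at 11.92 and 11.06 (0.86). The remaining names included the transporter SLCO4C1 (9.56 and 8.63), the membrane protein SHISA2 (8.01 and 7.13), HINT3 (10.15 and 9.30), UEVLD (11.22 and 10.37), the caveolar protein CAVIN4 (5.39 and 4.39) and the transposase-derived PGBD4 (6.63 and 5.75). Of the 30, 23 are protein coding, and 17 had the same sign in SUM159, beside 48.8% of all kept genes above 0 there. MIR100 and FAM72D alone passed 1.5-fold the same way there, beside 3.95% of all kept genes.

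The lowest difference belonged to a long noncoding RNA. LINC00273 stood at 9.79 in induced cells and 11.33 in control cells, a difference of -1.54, while its SUM159 difference was 0.73. SLC25A23, a mitochondrial carrier that exchanges ATP-magnesium for phosphate, stood at 9.29 and 10.26 (-0.97), and HOXC13, a homeobox factor of hair and nail, at 6.29 and 7.23 (-0.94, against 0.83 in SUM159). ATP6AP1, an accessory subunit of the proton pump that acidifies lysosomes, stood at 9.26 and 10.17 (-0.91), and its SUM159 difference was -1.62. RAVER1, an RNA-binding partner of the splicing regulator PTB, stood at 8.62 and 9.43 (-0.81). GET3, the ATPase that inserts tail-anchored proteins into the endoplasmic reticulum, stood at 11.38 and 12.14 (-0.76), and NAPA, which helps to recycle SNARE fusion complexes, at 8.46 and 9.23 (-0.77).

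Only 14 of the 30 lowest are protein coding, 8 are microRNA genes and 8 are of other types, mostly small RNAs described further on. PPP1R3C, which brings protein phosphatase 1 to glycogen, stood at 4.65 in induced and 5.44 in control cells (-0.79, and -1.40 in SUM159). RNF144B, a ubiquitin ligase, stood at 7.89 and 8.67 (-0.78, and -0.91 in SUM159). With ATP6AP1 these were the 3 of the 30 lowest that passed 1.5-fold the same way in SUM159, beside 3.0% of all kept genes. The sign was shared by 14, beside 49.4% of all kept genes below 0 in SUM159. CAMK2N2, an inhibitor of calmodulin-dependent kinase II, stood at 4.29 and 5.05 (-0.76).

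**Figure D2:**
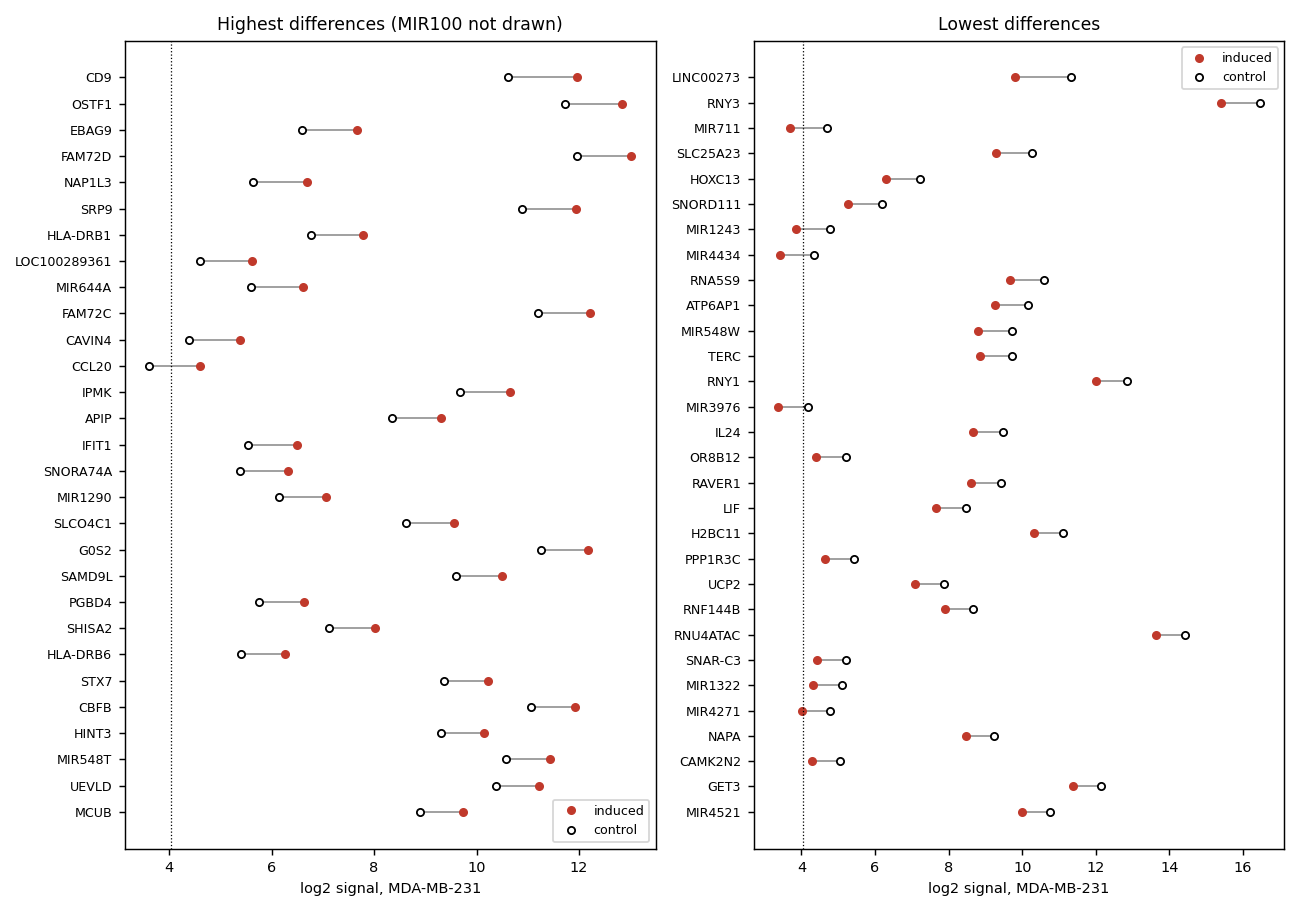
Log2 signal on the induced (filled) and control (open) MDA-MB-231 arrays for the named genes with the 30 highest and 30 lowest differences, in order of difference from the top, each panel with its own axis and MIR100 left out. The dotted line is the cutoff of 4.035, and CD9 (1.33) and LINC00273 (-1.54) head the panels.

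A gene read by several probesets gives a limited check within an array. Among 273 genes with several probesets above the cutoff in MDA-MB-231, 9 passed 1.5-fold at their brightest probeset, and AGPAT1 was the 1 gene with all probesets past it. AGPAT1, an acyltransferase of phospholipid synthesis, had 7 probesets with differences between -0.75 and -0.67, and these may share probes. The histone gene H2BC11 had a difference of -0.79 at its brightest probeset and 0.15 at the other. HLA-DRB1 had 1.02 and 0.06, and HLA-DRB6 had 0.87 and 0.08.

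Genes reported or predicted as miR-99/100 targets were mostly lower in induced MDA-MB-231 cells. Of 38 listed, 32 were kept, with 27 below 0, beside 47.3% of all kept genes, and 5 above it. The median of the 32 was -0.205 beside 0.01 for all kept genes. Several of the 27 lay within the 0.178 spread of below-cutoff probesets, among them GRHL1 (-0.02), BMPR2 (-0.03) and PPFIA3 (-0.04). FGFR3, TTC39A, GRHL1 and PPFIA3 had signals close to the cutoff, and KBTBD8 was below it on both MDA-MB-231 arrays. Past 1.5-fold were 5 lower and 0 higher, beside 0.784% and 1.69% of all kept genes. The list was drawn up with results of these arrays known, so its count is a description. In SUM159 the median was -0.19, and 23 of the 32 were below 0 in both lines.

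The 5 targets past 1.5-fold span signalling, chromatin and protein modification. MTOR stood at 8.34 in induced cells and 9.0 in control cells, a difference of -0.66, with -0.37 in SUM159. SMARCD1, a subunit of SWI/SNF chromatin remodelling complexes, stood at 7.16 and 7.89 (-0.73). In a bulk culture a lower signal may come from fewer expressing cells or from less RNA per cell, and these cannot be told apart. The phosphatases CTDSP2 and CTDSPL, which act on the tail of RNA polymerase II and on phosphorylated transcription factors, stood at 10.38 against 11.11 (-0.73) and at 8.47 against 9.12 (-0.65). NMT1, which attaches myristate to proteins, stood at 11.46 in induced cells and 12.11 in control cells (-0.65). MTOR was the only 1 of these 5 that did not pass 1.5-fold in SUM159 as well.

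Other listed targets were lower by less. EPDR1, a secreted ependymin-related protein, stood just short of the fold counted at 7.53 in induced and 8.11 in control cells (-0.58). The chromatin factor BAZ2A stood at 8.59 and 9.11 (-0.52), and RPTOR, the scaffold of mTOR complex 1, at 7.79 and 8.10 (-0.31). The nucleosome remodeller SMARCA5, a widely studied target of the family, stood at 11.46 and 11.65 (-0.19). IGF1R, a growth factor receptor, stood at 10.48 and 10.85 (-0.37) while its SUM159 difference was 0.32. The mitotic kinase PLK1, at 13.78 and 13.90, had a difference of -0.12, within the spread of below-cutoff probesets, and 0.55 in SUM159. FKBP5, a chaperone of steroid receptors, had -0.14 in MDA-MB-231 and -0.95 in SUM159, and the phosphatase subunit PPP3CA had 0.04 and -0.74. The highest listed member was the splicing regulator MBNL1, at 12.35 induced and 12.22 control (0.13). NOX4, HS3ST2 and ADCY1 were below the cutoff.

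**Figure D3:**
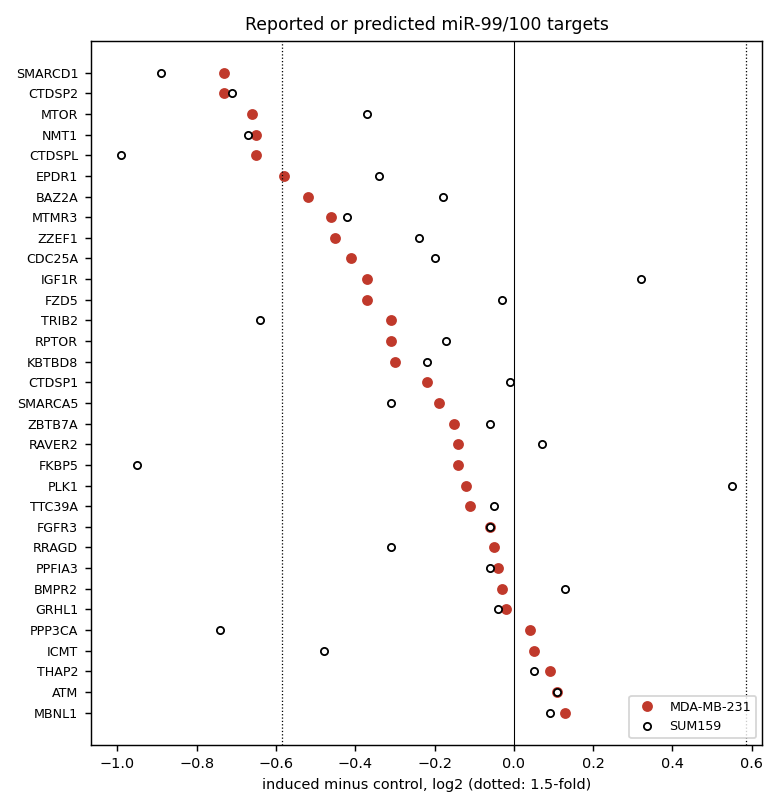
Induced minus control log2 difference of the 32 kept reported or predicted miR-99/100 targets in MDA-MB-231 (filled) and SUM159 (open), ordered by MDA-MB-231, with dotted lines at 1.5-fold. In MDA-MB-231 27 members lie below 0, and 5 of them (SMARCD1, CTDSP2, MTOR, NMT1 and CTDSPL) lie past the lower line.

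Other genes of the MTOR pathway lay on both sides of 0. Of 25 kept genes of the mTOR complexes and their TSC regulators, 15 were above 0 and 10 below, with a median of 0.09, and MTOR alone passed 1.5-fold. RRAGA, a GTPase that recruits the complex to lysosomes, stood at 6.79 in induced and 6.27 in control cells (0.52). RICTOR, the scaffold of mTOR complex 2, stood at 11.02 and 10.70 (0.32), and the cap-binding factor EIF4E, a downstream effector, at 7.12 and 6.81 (0.31).

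Amino acid supply genes had medians below the 0.01 of all genes. ATF4 is a transcription factor that raises amino acid synthesis and uptake under stress, and the ATF4 response list had a median of -0.165 over 28 genes, 18 of them below 0. VLDLR, a lipoprotein receptor, was the 1 member past 1.5-fold, at 5.96 in induced and 6.57 in control cells (-0.61). GDF15, a stress-secreted cytokine, stood at 7.50 and 8.06 (-0.56, and -1.22 in SUM159), the proline enzyme PYCR1 at 7.37 and 7.93 (-0.56), and the glutathione-degrading CHAC1 at 7.78 and 8.24 (-0.46). ATF4 itself stood at 11.46 and 11.78 (-0.32).

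Amino acid transporters had a median of -0.145 over 18 genes, 11 of them below 0. The arginine and lysine importer SLC7A1 stood at 11.61 in induced cells and 12.23 in control cells (-0.62), and its SUM159 difference was -0.67. The glutamine importer SLC1A5 had a difference of -0.45. SLC1A4, a carrier of small neutral amino acids, stood at 7.80 and 8.21 (-0.41), and SLC38A4, of the sodium-coupled neutral carriers, at 7.46 and 7.05 (0.41). The cytosolic aminoacyl-tRNA synthetases, which charge tRNAs, had a median of -0.11 over 19 genes and 0 past 1.5-fold. Their lowest members were those for tyrosine, YARS1 (9.36 and 9.94, -0.58), and methionine, MARS1 (10.82 and 11.26, -0.44), while that for asparagine, NARS1, stood at 15.19 and 14.90 (0.29).

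Cholesterol genes lay on both sides of 0, 12 of 20 below it beside 47.3% of all kept genes. Their median was -0.165 with 0 past 1.5-fold, and the SUM159 median was 0.05. DHCR7, the last enzyme of cholesterol synthesis, stood at 10.99 in induced cells and 11.41 in control cells (-0.42), and SREBF2, the factor that drives the pathway, at 6.70 and 7.09 (-0.39). STARD4, which carries cholesterol between membranes, stood at 9.45 and 9.02 (0.43). Of the fatty acid genes the synthase FASN stood at 10.90 and 11.40 (-0.50, against 0.51 in SUM159), and INSIG2, which holds back the cholesterol-sensing factors, at 9.69 and 9.10 (0.59).

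Genes that pass proteins into the endoplasmic reticulum had a median of 0.105 over 22 kept members of the signal recognition particle and translocon list, against -0.17 in SUM159. Beside SRP9, the particle's GTPase SRP54 stood at 11.55 in induced and 11.17 in control cells (0.38), the translocation protein TRAM1 at 13.06 and 12.57 (0.49), and the translocon partner SEC63 at 13.04 and 12.61 (0.43). Chaperones of the endoplasmic reticulum and the unfolded protein response had a median of 0.02, with DNAJB11 at 10.86 and 10.41 (0.45) and HYOU1 at 13.20 and 13.61 (-0.41). None of the 25 passed 1.5-fold. On the Golgi list SFT2D2, a vesicle transport protein, stood at 9.57 and 10.18 (-0.61, and -0.80 in SUM159), and KDELR1, which retrieves escaped resident proteins, at 12.77 and 13.28 (-0.51).

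The tetraspanin family held both CD9 and members with negative differences. Of 23 kept tetraspanins the median difference was 0.05, and CD9 and TSPAN6 passed 1.5-fold higher, beside 1.69% of all kept genes. TSPAN6 stood at 10.92 in induced cells and 10.16 in control cells (0.76), with -0.06 in SUM159, and TSPAN13 at 7.17 and 6.65 (0.52). CD151, a partner of laminin-binding integrins, stood at 11.83 and 12.16 (-0.33), and TSPAN15 at 5.74 and 6.22 (-0.48). The vesicle tetraspanins CD63 and CD81 had differences of -0.11 and -0.13.

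The subunits of the pump that ATP6AP1 assists were close to level. Over all 19 vacuolar ATPase genes the median was 0.02, and ATP6AP1 was the 1 member past 1.5-fold in either direction. Its relative ATP6AP2 had a difference of 0.25, and the pump subunit ATP6V1G1 stood at 10.39 in induced cells and 9.92 in control cells (0.47). The lysosome and autophagy list had 18 of 27 members below 0 and a median of -0.08, with the lysosomal calcium channel MCOLN1 at 9.43 and 9.92 (-0.49) and the autophagosome proteins GABARAPL1 at 6.74 and 6.24 (0.50) and MAP1LC3B at 9.81 and 9.33 (0.48).

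**Figure D4:**
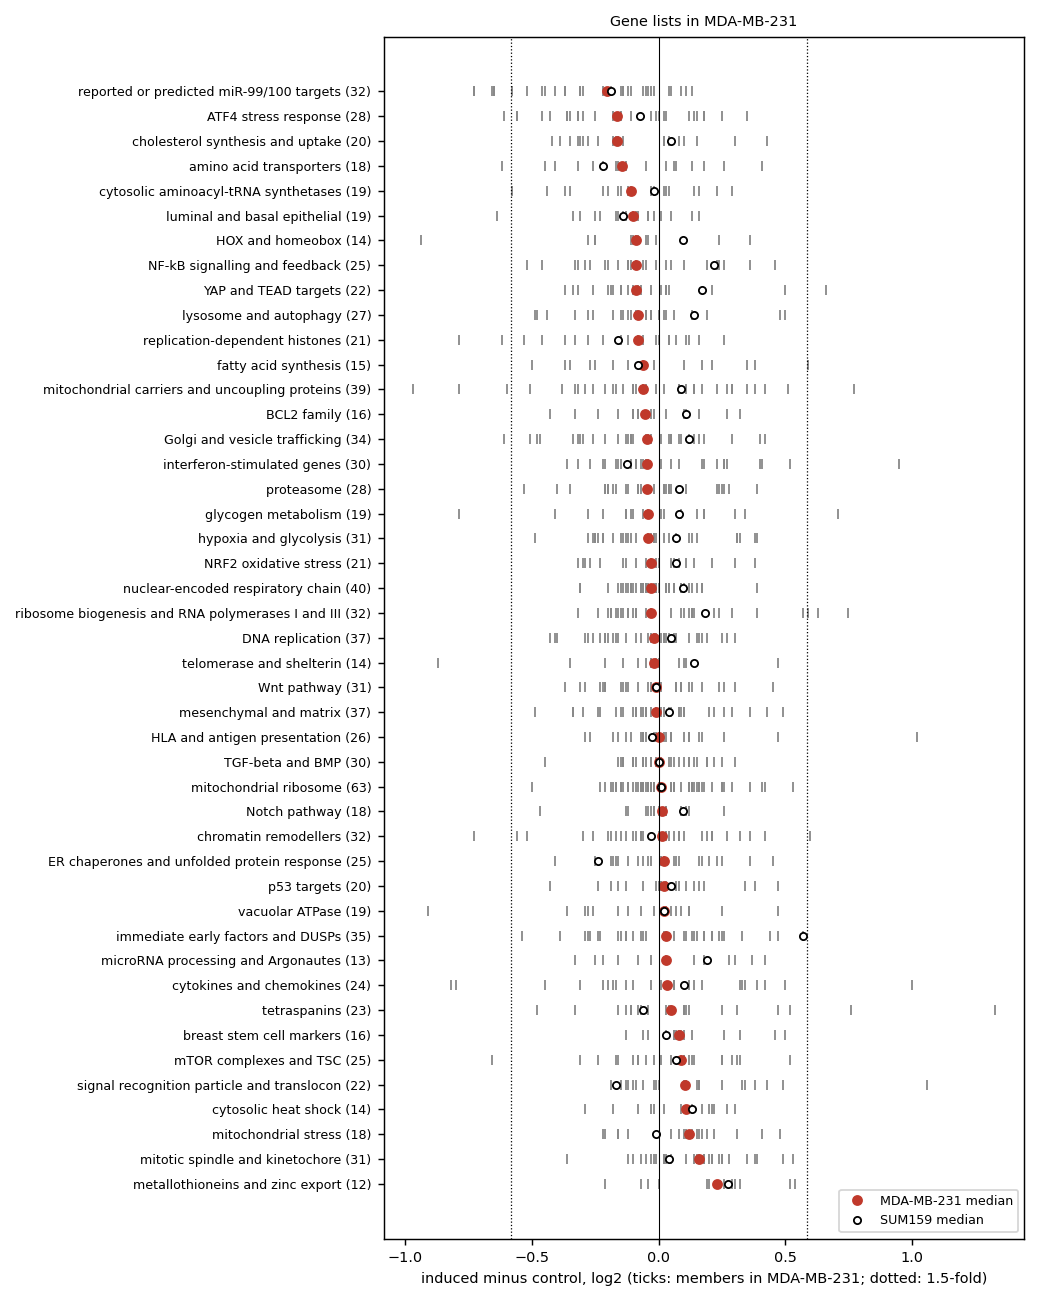
Induced minus control log2 difference of the kept members of the gene lists in MDA-MB-231 (grey ticks; line and cell markers and the miR-100 loci left out), with the MDA-MB-231 median (filled) and the SUM159 median (open), the number of kept members in brackets and dotted lines at 1.5-fold. MDA-MB-231 medians run between -0.205 (targets) and 0.23 (metallothioneins), and most ticks lie inside 1.5-fold.

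The sign of a median near 0 depended on the processing: 14 of 342 recomputed medians changed sign, among them the interferon list (0.09) and the cytokine list (-0.10) with a cutoff at the 75th percentile of signal.

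Secreted immune signals differed in both directions. CCL20, a chemokine that attracts cells with the receptor CCR6, stood at 4.61 in induced cells and at 3.61, below the cutoff, in control cells (1.00). IL24, a cytokine of the interleukin-10 family, stood at 8.66 and 9.48 (-0.82), and LIF, a cytokine of the interleukin-6 family, at 7.67 and 8.47 (-0.80). IL6 stood at 7.29 and 6.79 (0.50), IL11 at 7.11 and 6.69 (0.42), and TGFB1 at 9.08 and 9.53 (-0.45, against 1.03 in SUM159). The median of the 24 kept cytokine and chemokine genes was 0.035. NF-kB pathway genes had a median of -0.09 and 0 of 25 past 1.5-fold, with the subunit NFKB2 at 7.61 and 8.13 (-0.52) and the adhesion receptor ICAM1 at 11.17 and 10.71 (0.46).

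Interferon-responsive genes did not share a direction: 14 of 30 were above 0 and 16 below, with a median of -0.045. IFIT1, which binds foreign capped RNA, was the 1 member past 1.5-fold, at 6.49 in induced and 5.54 in control cells (0.95). Its SUM159 difference was -0.48, with both SUM159 arrays below the cutoff (3.26 induced and 3.74 control). SAMD9L, an antiviral factor outside that list, stood at 10.50 and 9.59 (0.91), and its neighbour SAMD9 at 9.34 and 8.93 (0.41). IFI35 stood at 7.28 and 7.64 (-0.36).

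Of the HLA class II genes, which present peptides to helper T cells, HLA-DRB1 stood at 7.79 in induced cells and 6.77 in control cells (1.02), with a lesser probeset at 0.06. HLA-DRA, its partner chain, stood at 6.97 and 6.50 (0.47), and CD74, the chaperone of class II molecules, at 7.58 and 7.32 (0.26). CIITA, the activator of class II transcription, had a difference of -0.01. The 10 kept class II genes had a median of 0.095 with 6 above 0, and the 6 kept class I genes a median of -0.025. HLA-DRB genes are close copies and are uncertain as single genes.

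Mitotic genes were mostly above 0 and none reached the fold counted. Of 31 kept spindle and kinetochore genes 23 were above 0, beside 50.6% of all kept genes. Their median was 0.16, against 0.04 in SUM159. These genes are bright, with a median MDA-MB-231 signal of 12.48. All kept genes with a mean signal between 10 and 12 had a median difference of 0.09, with 1037 of 1648 above 0. Those above 12 had a median of 0.07, with 555 of 941 above 0. The part of signal in the mitotic values was not tested. The cyclin CCNA2 stood at 14.17 in induced cells and 13.64 in control cells (0.53), the kinetochore protein NDC80 at 12.43 and 11.94 (0.49), and the mitotic kinase CDK1 at 10.67 and 10.28 (0.39). SPC25, a partner of NDC80, stood at 7.73 and 8.09 (-0.36). DNA replication genes had a median of -0.02 over 37, and the origin-licensing factor CDT1 stood at 6.75 and 7.18 (-0.43).

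Replication-dependent histone genes had a median of -0.08, with 21 of 57 listed kept and 2 past 1.5-fold lower, beside 0.784% of all kept genes. H2BC11 stood at 10.31 in induced cells and 11.10 in control cells (-0.79), H2BC14 at 7.92 and 8.54 (-0.62), and the linker histone H1-4 at 15.63 and 16.16 (-0.53). Histone genes are close copies, and H2BC11 was not lower at its lesser probeset. Among homeobox genes 12 of 14 were below 0, beside 47.3% of all kept genes, HOXC13 being the 1 past 1.5-fold. As a group these genes are dim, with a median MDA-MB-231 signal of 4.64. Among all kept genes with a mean MDA-MB-231 signal up to 5, 1951 of 3575 were below 0. The part of signal in the homeobox values was not tested. Of 8 kept HOXC genes 7 were below 0 with a median of -0.105, against 0.305 in SUM159.

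Of 39 kept mitochondrial carrier genes 3 passed 1.5-fold lower and 1 higher, beside 0.784% and 1.69% of all kept genes, and the median was -0.06. Beside SLC25A23, the uncoupling protein UCP2 stood at 7.09 in induced cells and 7.88 in control cells (-0.79), and SLC25A44, a branched-chain amino acid carrier, at 8.06 and 8.66 (-0.60). SLC25A36, a pyrimidine nucleotide carrier, stood at 9.14 and 8.37 (0.77, and 0.83 in SUM159). Tetracycline-type drugs are known to slow protein synthesis in mitochondria, and genes for the machinery there are given for that reason. The 63 kept mitochondrial ribosome genes had a median of 0.01, 32 above and 30 below 0. The 40 respiratory chain genes had a median of -0.03, and neither list had a member past 1.5-fold. NDUFB2, a complex I subunit outside these lists, had 0.78 at its brightest probeset (1.42 in SUM159) and -0.09 at the other. The mitochondrial stress list had a median of 0.12 with 13 of 18 above 0 and 0 past 1.5-fold, led by the protease subunit CLPX at 9.98 and 9.50 (0.48) and the mitochondrial DNA-binding factor TFAM at 11.84 and 11.43 (0.41).

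Genes of cell identity and rapid response lay within 1.5-fold apart from SFN. Epithelial genes had 15 of 19 below 0, beside 47.3% of all kept genes, and a median of -0.10. SFN, an epithelial member of the family of phosphoprotein-binding adaptors, stood at 12.04 in induced and 12.68 in control cells (-0.64). The keratin KRT8 stood at 13.03 and 13.37 (-0.34). Of 37 mesenchymal and matrix genes 0 passed 1.5-fold and the median was -0.01, with the collagen crosslinker LOX at 10.11 and 9.62 (0.49) and the fibronectin receptor chain ITGA5 at 10.88 and 11.37 (-0.49). Immediate early genes and the DUSP phosphatases had a median of 0.03 and 0 of 35 past 1.5-fold, whereas in SUM159 the median was 0.57 and 17 were past it, 16 higher and 1 lower. EGR1, the highest of them, stood at 8.86 and 8.29 (0.57), against a SUM159 difference of 2.36. The breast stem cell list had 13 of 16 above 0, beside 50.6% of all kept genes, and a median of 0.08. CD24 was highest, at 4.42 in induced cells and 3.92, below the cutoff, in control cells (0.50). Low rather than high CD24 is the usual mark of breast stem cells. Next was the protein C receptor PROCR at 9.42 and 8.96 (0.46).

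The metallothionein list had the highest median of the 49 lists, 0.23 over 12 genes, with 8 above 0, 3 below and 0 past 1.5-fold. Metallothioneins are small proteins that bind zinc and copper, and their genes answer metals through the factor MTF1. The zinc exporter SLC30A1 stood at 10.36 in induced cells and 9.82 in control cells (0.54), MT1F at 6.10 and 5.58 (0.52), and among the others MT2A at 17.43 and 17.13 (0.30) and MT1H at 5.33 and 5.01 (0.32). MT1X had a difference of -0.21, and MT1E stood at 13.49 on both arrays. The SUM159 median was 0.275. With a cutoff at the 75th percentile of signal, 7 members were left and the MDA-MB-231 median was 0.00. Metallothionein genes are close copies, so members are uncertain as single genes.

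The bases upstream of MT2A and MT1H are shown because 8 of 12 members were above 0 and such genes are known for a metal-response motif. Each stretch is the 250 bases before the gene's start in RefSeq, assembly GRCh38.p14, read on the plus strand, at chr16:56608334-56608583 for MT2A and chr16:56669564-56669813 for MT1H. Capitals mark every match to TGCACNC or TGCGCNC, the core of the metal response element, on either strand.
MT2A upstream: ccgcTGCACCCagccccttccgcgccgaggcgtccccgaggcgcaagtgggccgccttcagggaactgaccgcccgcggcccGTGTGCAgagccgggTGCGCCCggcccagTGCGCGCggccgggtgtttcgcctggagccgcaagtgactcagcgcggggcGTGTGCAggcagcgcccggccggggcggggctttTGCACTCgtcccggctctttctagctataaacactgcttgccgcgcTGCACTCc
MT1H upstream: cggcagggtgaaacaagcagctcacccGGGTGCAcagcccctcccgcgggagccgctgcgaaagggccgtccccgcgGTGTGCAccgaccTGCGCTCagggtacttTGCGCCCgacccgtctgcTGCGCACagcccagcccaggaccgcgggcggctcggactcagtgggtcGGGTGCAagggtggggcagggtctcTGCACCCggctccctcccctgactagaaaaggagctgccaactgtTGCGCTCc
MT2A holds 7 matches, 5 forward and 2 reverse, and MT1H holds 8, 5 forward and 3 reverse. Of the 7 list members in the promoter table, 5 hold at least 3 matches, as do 1.56% of all 27305 promoters of that length. At least 1 match is in 6 of the 7 and in 24.7% of all promoters. Because these genes are known for the motif, the larger share was known beforehand and says nothing about the differences on these arrays. A match is a description of the letters and not a bound site.

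Small structured RNAs lay mostly below 0 in MDA-MB-231, and this group was put together after its values were seen. It takes the Y, vault, telomerase, 5S, spliceosomal, 7SK, snaR, 7SL, RNase P and RNase MRP RNAs. Of 27 kept genes 23 were below 0 and 3 above, with a median of -0.35, while 47.3% of all kept genes were below 0. Past 1.5-fold were 8 lower and 0 higher, beside 0.784% and 1.69% of all kept genes. The group holds only genes with a RefSeq type, so the 0 higher depends on that choice. Left out were related genes with no gene ID, and some of these passed 1.5-fold in both lines. In MDA-MB-231 RNU5E-2P (0.95), RNU1-16P (0.67) and RNA5SP352 (0.65) were higher and RNY4P26 (-1.07) was lower. With no signal cutoff the median of the group was -0.22. In SUM159 the same genes had a median of 0.20 and 20 were above 0. RNY3 and RNY1, which bind the Ro60 protein, stood at 15.40 in induced against 16.47 in control cells (-1.07) and at 12.01 against 12.86 (-0.85). The telomerase template TERC stood at 8.85 and 9.72 (-0.87), the ribosomal RNA gene RNA5S9 at 9.67 and 10.59 (-0.92), and RNU4ATAC, of the minor spliceosome, at 13.64 and 14.42 (-0.78). Some members were above 0: RNY4 stood at 6.0 and 5.68 (0.32), RN7SK, which restrains transcription elongation, at 18.78 and 18.71 (0.07), and RMRP at 16.33 and 16.22 (0.11).

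Small nucleolar RNAs, which guide modification of ribosomal RNA, had medians of -0.09 over 91 SNORD genes and -0.08 over 57 SNORA genes in MDA-MB-231, against 0.18 and 0.24 in SUM159. Kept microRNA genes past 1.5-fold made up 3.52% higher and 4.34% lower of 369, beside 1.69% and 0.784% of all kept genes, with a median of -0.01. The list of ribosome biogenesis genes and RNA polymerases I and III had a median of -0.03. Of its 32 kept members 17 were below 0, beside 47.3% of all kept genes, and 3 were past 1.5-fold higher, beside 1.69%. POLR3G, a subunit of RNA polymerase III, stood at 10.58 in induced cells and 9.83 in control cells (0.75, and 0.86 in SUM159), NOP58, a core protein of SNORD particles, at 13.95 and 13.32 (0.63), and POLR1F, a subunit of RNA polymerase I, at 9.24 and 8.65 (0.59). The recovery of small RNAs in each sample is not recorded in the labels, and its part in these values was not tested.

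Zinc finger genes with ZNF symbols were above 0 as a class, and they too were grouped after their values were seen. The 419 kept ones had a median of 0.11, with 20 past 1.5-fold higher (4.77%) and 1 lower, beside a median of 0.01 and 1.4% higher for the other 11466 protein-coding genes. In SUM159 their median was -0.04. Many of these genes encode repressors that silence transposable elements and stand in clusters on chromosome 19. On chromosome 19 the 210 ZNF genes had a median of 0.15 and the other 723 genes -0.09. Neither class was uniform: 43 of the 210 were below 0 and 220 of the 723 above it. The 209 ZNF genes on other chromosomes had a median of 0.06.

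**Figure D5:**
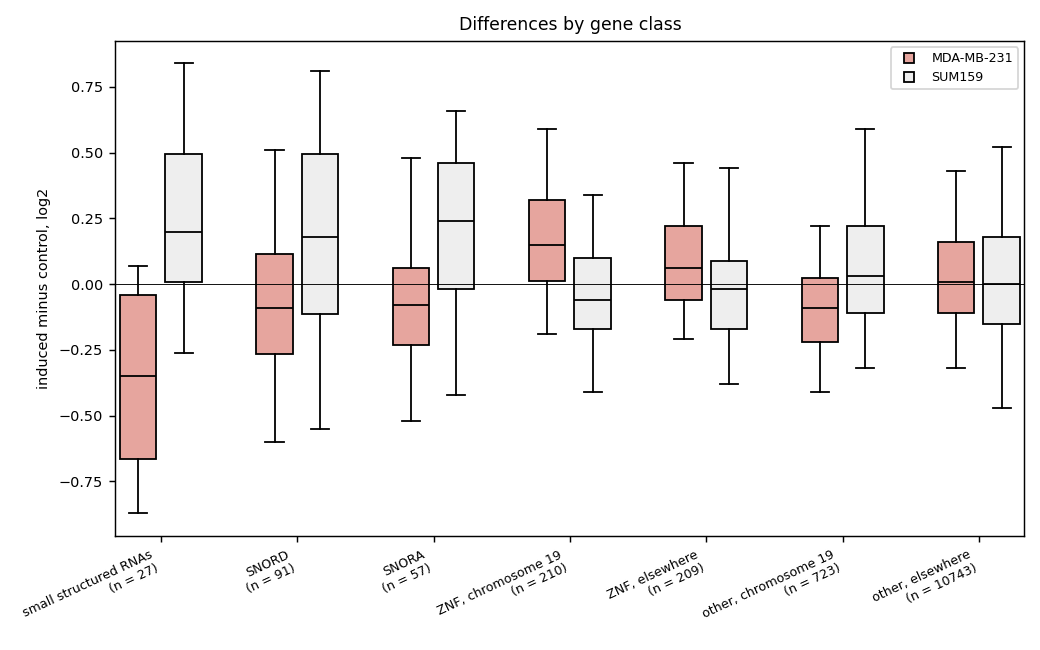
Induced minus control log2 differences by gene class in MDA-MB-231 (red) and SUM159 (grey). Boxes span the quartiles with the median as a line, and whiskers the 5th to 95th percentiles. Small structured RNAs lie lowest in MDA-MB-231 (median -0.35) and above 0 in SUM159 (0.20), and ZNF genes of chromosome 19 lie highest in MDA-MB-231 (0.15).

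Several gene properties moved weakly with the MDA-MB-231 difference, and their part in the results above was not tested. Over protein-coding genes binned by genomic span into 5 equal groups, the medians were -0.04 and -0.02 for the shortest groups, 0.02 for the middle and 0.07 and 0.04 for the longest, while SUM159 medians lay between -0.02 and 0.02. By GC content of the promoter the medians ran downward, 0.04 in the lowest group and -0.02 in the highest, and in SUM159 upward, -0.04 and 0.04. Genes with a mean MDA-MB-231 signal up to 5 had a median of -0.02, and 0.671% of them passed 1.5-fold higher. Those between 10 and 12 had a median of 0.09 and 3.4%. By chromosome the medians reached 0.13 on chromosome 13 and -0.08 on chromosome 22.

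Some genes passed 1.5-fold the same way in both lines. Higher in both were 22 genes. They made up 9.02% of those higher in MDA-MB-231, beside 3.95% of all kept genes that were higher in SUM159. Of those higher in SUM159 they made up 3.86%, beside 1.69% of all kept genes that were higher in MDA-MB-231. Lower in both were 12, which are 10.6% of those lower in MDA-MB-231, beside 3.0% of all kept genes lower in SUM159. Of those lower in SUM159 the 12 made up 2.78%, beside 0.784% of all kept genes lower in MDA-MB-231. These overlaps were not tested. The difference was larger in SUM159 for 21 of the 22 and 10 of the 12. Each line has its own control array, and the lines were run with the same plasmid and drug.

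Genes higher in both lines included NT5E, the enzyme CD73 that makes extracellular adenosine, at 15.68 in induced and 15.02 in control MDA-MB-231 cells (0.66, and 1.22 in SUM159). SMARCA1, an ISWI chromatin remodeller, stood at 13.57 and 12.97 (0.60, and 0.97), and CXADR, the junction protein used by coxsackieviruses and adenoviruses, at 8.70 and 8.04 (0.66, and 0.95). PGM2L1, which makes glucose bisphosphate, stood at 8.43 and 7.72 (0.71, and 1.47), FNBP1L, a membrane-bending protein, at 10.91 and 10.28 (0.63, and 1.40), and the HSP70 cochaperone BAG2 at 12.31 and 11.71 (0.60, and 0.69). TTC33, ENDOD1 and ZNF92 had MDA-MB-231 differences of 0.59, 0.72 and 0.67. With POLR3G, SLC25A36, FAM72D and MIR100 these are 13 of the 22, and the other 9 are small RNA genes, pseudogenes, an antibody segment and genes with no gene ID in the annotation, NDUFB2 among them.

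Of the 12 lower in both, 4 are on the target list (SMARCD1, CTDSP2, CTDSPL and NMT1), which holds 32 of the 14418 kept genes. That list was drawn up with results of these arrays known, so the 4 are a description. SLC7A1, SFT2D2, ATP6AP1, RNF144B and PPP1R3C have been described. DNAJC11, a protein of the mitochondrial inner membrane organising system, stood at 9.87 in induced and 10.50 in control MDA-MB-231 cells (-0.63, and -0.93 in SUM159). The antisense transcript SYNE1-AS1 stood at 4.83 and 5.49 (-0.66), and the Y RNA pseudogene RNY4P26 at 4.52 and 5.59 (-1.07).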

How the data were processed

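The deposited table holds the authors' log2 signal per probeset for 4 arrays, with values from 1.54 to 19.86 and array medians from 4.00 to 4.07. The submitters' processing notes name Transcriptome Analysis Console and Affymetrix Expression Console, with no versions, and the summarisation, normalization and genome build were not given in the sources used here. A shift shared by most genes could have been removed before deposit, and values were used without further scaling.

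Probesets with exactly 1 symbol in the platform annotation (23781) were used. Those with several (1543) or none (45199) were not. Of 21545 with a gene ID, 21497 matched RefSeq GRCh38.p14, which gave gene types, and 0 symbols changed. Of the kept genes, 44 have a symbol on another chromosome than their probeset ID names, MIR548T among them. Differences were computed with Python 3.11.15, pandas 2.3.3 and numpy 2.4.6. The counting was run on simulated noise with the below-cutoff spread of 0.178. Differences of kept genes with a mean MDA-MB-231 signal between 10 and 12 had a wider SD of 0.279. The simulation therefore does not give the share of false counts on these arrays. With 0 residual degrees of freedom in the line no test was possible. The cutoff was the median over all probesets.

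Named genes are the miR-99/100, let-7 and miR-125 loci, the 30 highest and 30 lowest differences among kept genes with a RefSeq ID and at least 1 MDA-MB-231 array at the cutoff, list members past 1.5-fold and up to 5 more per list, genes past it in both lines, genes whose probesets all passed it, and relatives of these. Line markers, the targets given with small differences, further members of lists, SAMD9L beside the interferon list and the ZNF and small RNA groups were chosen outside that rule or after values were seen. The members and all 49 lists were chosen with earlier results of these data known. Of 49 lists, 27 had 0 members past 1.5-fold, and not all are described in words. The alternatives were quantile normalization, median centring, other signal cutoffs, the mean of probesets, protein-coding genes alone and a 2-fold threshold.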

Additional observations from a re-analysis of the deposited data

Results flagged for a closer look

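In 17 genes the MDA-MB-231 and SUM159 differences were both past 1.5-fold but in opposite directions, 4.76% of the genes past it in MDA-MB-231 and 1.7% of those in SUM159. With 1 array per state the difference between lines was not tested. For comparison, 3.0% of all kept genes passed the fold downward in SUM159 and 3.95% upward. In MDA-MB-231 0.784% passed it downward and 1.69% upward. Whether 17 exceeds what such shares alone would give was not tested. Of the 17, 12 were higher in induced MDA-MB-231 cells and lower in induced SUM159 cells. The values that follow are the MDA-MB-231 difference minus the SUM159 difference on the log2 scale.

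LAPTM5, a lysosomal membrane protein of blood cells, had 1.67, with 11.82 induced and 11.18 control in MDA-MB-231 and 15.01 induced and 16.04 control in SUM159. The small GTPase RAP2B had 1.56, the microtubule-severing SPAST 1.41, the Golgi scaffold GOPC 1.19, DCAKD 1.19 and the bile acid transporter relative SLC10A5 1.51. The small RNA genes among the 12 were SNORA31 with 1.38, MIR548T with 1.58, MIR2054 with 1.55 and MIR548K with 1.26, and the antibody segments were IGKV5-2 with 1.55 and IGHD3-10 with 2.04. MIR548T had another probeset with a difference of -0.73 in MDA-MB-231.

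Lower in induced MDA-MB-231 cells and higher in induced SUM159 cells were LINC00273 with -2.27, VTRNA1-3 with -1.88, HOXC13 with -1.77, RNY1 with -1.69 and the filamin-binding RFLNB with -1.22. HOXC13 stood at 6.29 induced and 7.23 control in MDA-MB-231 and at 9.83 induced and 9.0 control in SUM159. VTRNA1-3, a vault RNA, stood at 3.91 and 4.62 in MDA-MB-231, the induced value below the cutoff, and at 6.86 and 5.69 in SUM159.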

How the results depend on the processing

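None of 177 recomputed gene differences changed direction. These cover the genes ranked highest and lowest, MIR100 apart, under quantile normalization, centring and averaging of probesets. Except for MIR100, the other named genes were not recomputed singly, so their direction under the alternatives is not known. Of 32 recomputed counts, 25 stayed within 1.5 times. Of 342 recomputed list medians 14 changed sign, and 13 of these had lain within 0.1 of 0. With the 75th percentile cutoff these were cytokines at -0.10, interferon genes at 0.09, vacuolar ATPase at -0.02, Wnt at 0.07 and the markers listed as low at 0.03. After quantile normalization they were ER chaperones at -0.03, mitochondrial ribosome at -0.02, chromatin remodellers at -0.017 and Wnt at 0.006, and after centring mitochondrial ribosome at -0.01, chromatin remodellers at -0.005 and Notch at -0.005. With probesets averaged the markers listed as high had -0.035. The count lower in MDA-MB-231 was 69 with a cutoff at the 75th percentile and 58 over protein-coding genes, and 12 genes were higher in both lines over protein-coding genes. At 2-fold, MDA-MB-231 had 15 higher and 6 lower genes, 1 was higher in both lines and 0 were lower in both, with no test behind any count. With the 75th percentile cutoff the miR-100 locus list was 1 member at 9.18 and the metallothionein median 0.00, and over protein-coding genes the locus list was 1 member at -0.20. MIR100 itself was 9.31 after quantile normalization and 9.16 after centring. Quantile normalization gave 201 higher and 130 lower genes, and centring 213 and 128. Of 177 recomputed differences of named genes, 173 moved by less than the spread of below-cutoff probesets, and with probesets averaged HLA-DRB1 had 0.54, HLA-DRB6 0.475, MIR548T 0.06 and H2BC11 -0.32. Of the groups added after values were seen, the ZNF median ran between 0.08 and 0.17, and the small RNA median between -0.40 and -0.22, with -0.22 when no signal cutoff was set. No paired analysis was possible because each group has 1 array and no test was made, and for the same reason no replicate could be left out. Signal near background limits the genes close to the cutoff.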

Other observations

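Proteins that bind small RNAs described above were read after those values were seen, as a description. RO60, the protein that binds Y RNAs, stood at 11.80 in induced and 11.16 in control MDA-MB-231 cells, a difference of 0.64, with 0.15 in SUM159. SSB, the La protein that binds new RNA polymerase III transcripts, stood at 12.38 and 12.06, a difference of 0.32, with 0.11 in SUM159.

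Further lists had medians near that of all genes in MDA-MB-231. Hypoxia and glycolysis genes had a median of -0.04 over 31, with the hypoxia factor EPAS1 at 9.22 in induced and 9.71 in control cells (-0.49). Proteasome genes had -0.045 over 28, with the catalytic subunit PSMB6 at 11.43 and 11.96 (-0.53). Chromatin remodellers had 0.015 over 32, with the SWI/SNF ATPase SMARCA4 at 10.58 and 11.14 (-0.56). Members of that list ran from -0.73 to 0.60, with 1 past 1.5-fold higher and 1 lower, beside 1.69% and 0.784% of all kept genes. Wnt pathway genes had -0.01 over 31, with the cyclin CCND1 having a difference of 0.45, and Notch pathway genes 0.015 over 18, with NOTCH2 at 11.06 and 11.53 (-0.47). None of the genes named here reached 1.5-fold except RO60.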
